A study of Rattus norvegicus with 85 samples.

Results

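Son is a large RNA-binding protein of nuclear speckles that acts as a splicing cofactor, and it is best known for helping the spliceosome use weak splice sites, many of them in transcripts of the cell cycle. Adenosine deaminases acting on RNA, Adar and Adarb1, convert adenosine to inosine in double-stranded RNA, and because inosine is read as guanosine an edited position appears in sequencing as an A-to-G difference. In a coding exon such a change can replace an amino acid (nonsynonymous) or leave it as it was (synonymous).

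The data are the editing levels of the Son transcript in rat, measured by microfluidic multiplex PCR and sequencing (mmPCR-seq), in which a set of target fragments is amplified from the cDNA of each sample and the reads with G are counted at each known site. All positions that the deposited files assign to Son were used, and there were 8 of them among the 179 positions in the files, all 8 also among the 146 sites of the study's own list. The editing level is the percent of the reads at a position that carry G, and a level was used where the position had at least 50 reads. The panel measures editing and not expression, so the labelled tissues could not be checked against marker genes.

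The study asked whether editing differs with age, brain region and stress before pregnancy, and whether the last is passed to offspring. All animals were Sprague-Dawley rats, with 72 brain samples and 13 oocyte samples. Adult females at postnatal day 60 (P60) were controls (C) or had been through pre-reproductive stress (PRS), an unpredictable stress of 7 days in adolescence, and they gave prefrontal cortex (PFC; 5 C and 6 PRS) and amygdala (AMY; 5 C and 7 PRS). Their offspring at P0, of both sexes, formed the first generation (O1-C and O1-PRS; PFC 5 and 6, AMY 5 and 6), and O1 males mated with naive females gave the second generation at P0 (O2-C and O2-PRS; PFC 7 and 7, AMY 7 and 6). Oocytes came from C (6) and PRS (7) females; their labels carry age P0 and generation F0, while the study's methods describe hormone-treated unmated females. Adult samples are all female and neonatal samples are of both sexes. The age comparisons set adults against O1 neonates of the same region, C against O1-C (control line) and PRS against O1-PRS (stress line). Age therefore cannot be told apart from generation in them. In the stress line the adults had been stressed themselves, while the neonates were offspring of stressed females. Nothing in the labels says which samples share an animal or a litter, so the p-values measure only the spread between these samples.

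The 8 sites lie on the plus strand of chromosome 11 in the rn4 build, within 518 bases. In 5′ to 3′ order they are site 1 at 31628074 (Thr->Ala), site 2 at 31628079 (Pro->Pro), site 3 at 31628529 (Ser->Ser), site 4 at 31628545 (Thr->Ala), site 5 at 31628548 (Arg->Gly), site 6 at 31628553 (Ala->Ala), site 7 at 31628558 (Glu->Gly) and site 8 at 31628592 (Leu->Leu). They comprise 4 nonsynonymous and 4 synonymous sites. Sites 4 to 7 lie within 13 bases of each other, and each of sites 4, 6 and 7 had a median of 97.9% to 103% of the reads of site 5 over the brain samples, so these 4 levels rest on nearly the same number of reads.

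Son was amplified as 3 fragments. Their primers are shown with the sites that the study's primer list gives for each. The gene-specific parts are given 5′ to 3′, without the adapter tail that each primer carries, as forward and reverse primers of the study's primer list, and capitals mark a stretch that another of these 6 primers shares, on the same or the opposite strand.
Listed for sites 1 and 2, forward: TTGTCAGGGCccctttct
Listed for sites 1 and 2, reverse: ggttgccctgtcaactctatt
Listed for sites 3 to 7, forward: TGAGGTGACAACAgcaaca
Listed for sites 3 to 7, reverse: cacagactGCCCTGACAA
Listed for site 8, forward: gcatccTGAGGTGACAACA
Listed for site 8, reverse: cagttgccatgagctgac
The forward primers listed for sites 3 to 7 and for site 8 share 13 bases on the same strand. The forward primer for sites 1 and 2 and the reverse primer for sites 3 to 7 share 10 bases on opposite strands. No rn4 genome sequence was used here, so the bases around the edited adenosines are not shown.

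By the read numbers, sites 4 to 7 may have been read from both of the last fragments, although the list gives them under the first of these. No read was assigned to a fragment here. Site 3 had a median of 58.8% and site 8 of 43.6% of the reads of site 5 over the brain samples, and reads at sites 3 and 8 together made 99.0% to 107% of those at site 5 (median 102%, n = 71). If the reads came from both fragments, levels at sites 4 to 7 pool them, in shares that differed between samples. Site 8 had more reads than site 3 in 9 of 71 samples, which were C AMY replicates 2, 3 and 4, C PFC replicate 19, PRS AMY replicate 162, O2-C AMY replicate 142, O2-C PFC replicate 150 and O2-PRS AMY replicates 117 and 146. In 3 of them (C PFC replicate 19, O2-C AMY replicate 142 and O2-PRS AMY replicate 146) site 3 had 19, 8 and 32 reads while site 5 had 8630, 4045 and 13346. The part of these shares in the levels was not tested.

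Reads summed over the listed sites ran from 149278 to 3274843 in a brain sample and from 18705 to 424442 in an oocyte sample, a read being counted at every site it covers. At least 50 reads were reached in 567 of the 576 Son values in brain. The median depth in brain was 6998 to 14246 reads a site, at which 3 edited reads make 0.0211% to 0.0429%. In adult brain the median at site 5 was 5465 reads, and in neonatal brain 19727, so the adult levels rest on fewer reads. Reads were not marked by molecule, so intervals and floors here cover counting error only. A sample is a bulk punch, so few cells with much editing and many cells with little cannot be told apart, nor can fewer cells of a type and less RNA per cell. One O2-C PFC sample (replicate 155) had under 50 reads at more than 30% of the listed sites and was left out of the tests.

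Levels at the Son sites were low in brain. The median over the brain samples was highest at site 3 (Ser->Ser), with 1.25% and a range from 0.2% to 3.1%, and next at site 5 (Arg->Gly), with 1.0% and a range from 0.1% to 53.0%. The other 6 sites had medians from 0.2% (site 4, Thr->Ala) to 0.45% (site 2, Pro->Pro). By their medians the Son sites took places 77 to 137 among the 146 listed sites. At 7 positions of other genes that the files hold outside the study's list and that had enough reads, the medians in brain ran from 0% to 0.8%, with 6 of them under 0.5%. Whether those positions are edited was not tested. The medians of 6 Son sites lay inside their range, and those of sites 3 and 5 above it. By these medians over all brain samples the 6 sites cannot be told apart from such positions. At site 1 the adult median was 1.1% and the neonatal median 0.3%, and those positions were not split by age. Site 5 was higher than site 4 in 67 of 71 samples and higher than site 7 (Glu->Gly) in 67 of 71, at nearly the same depth. Site 3 was higher than site 5 in 36 of 68 samples. In adult brain the median was 3.6% at site 5 and 1.45% at site 3, and in neonatal brain it was 0.7% and 1.1%. The order of sites 3 and 5 over all brain samples thus depends on the mix of ages.

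Among the comparisons of brain groups, the Son site whose groups did not overlap was site 5, whose edit changes an arginine codon to glycine, and this was between the ages in PFC. In adult control PFC the levels were 3.1%, 2.7%, 3.8%, 4.5% and 4.9%. In neonatal O1-C PFC they were 1.2%, 0.7%, 0.3%, 0.6% and 1.0%. The groups did not overlap. In adult PRS PFC the levels were 2.6%, 2.4%, 4.6%, 5.1%, 3.6% and 5.4%. In neonatal O1-PRS PFC they were 0.1%, 0.7%, 0.8%, 1.1%, 0.5% and 0.6%. Here too the groups were separate.

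**Figure D1:**
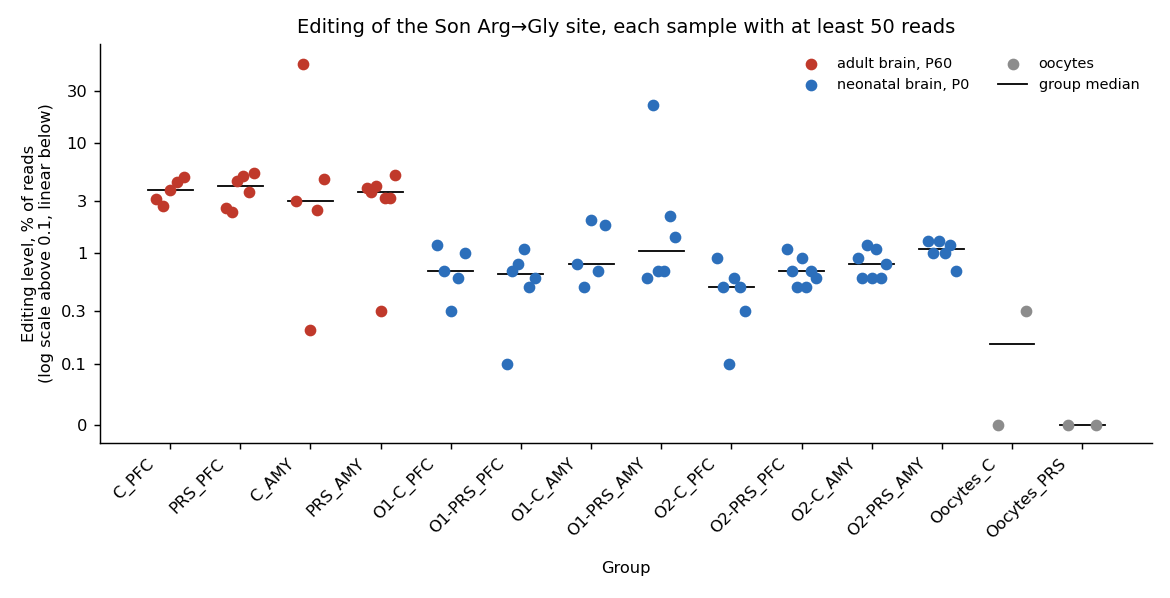
Editing level of Son site 5 (Arg->Gly) in percent of reads, on an axis that is logarithmic above 0.1 and linear below, for each sample with at least 50 reads in each of the 14 groups. Points are samples and bars are group medians. Adult brain medians lie from 3.0% to 4.1% and neonatal medians from 0.5% to 1.1%, with a sample at 53.0% in C AMY, a sample at 22.3% in O1-PRS AMY, and adult AMY samples at 0.2% and 0.3%.

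Site 5 rose from 0.76% ± 0.35 (SD, n = 5) in neonatal to 3.80% ± 0.92 (SD, n = 5) in adult PFC of the control line, a difference of 3.04 points (exact two-sided Mann-Whitney test, p = 0.00794, adjusted p = 0.0191). That p is the smallest that 5 samples against 5 allow. In the stress line it rose from 0.63% ± 0.33 (SD, n = 6) to 3.95% ± 1.28 (SD, n = 6), a difference of 3.32 points (exact Mann-Whitney test, adjusted p = 0.00456). Leaving out any single sample kept both calls, with differences from 2.77 to 3.32 points in the control line and from 3.03 to 3.63 points in the stress line. The groups were separate at 27.8% of the tested sites of all genes in the control line and at 30.6% in the stress line, so a gap between the age groups at a site was common on the panel.

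Libraries carry numbers, and sets of 48 consecutive numbers were taken as possible batches, since the amplification array has 48 columns; the sources used here do not say that a set was run together. Within the set that holds all 5 adult control PFC samples there was a single O1-C PFC sample, at 1.2%, against 2.7% to 4.9% in the adults. With the labels permuted only within sets, this comparison could no longer pass (exact test, adjusted p = 0.441). In the stress line the same set held 3 neonatal samples, from 0.1% to 0.8%, and all 6 adults, from 2.4% to 5.4%, and the call held within it (exact test, adjusted p = 0.0397). The 3 neonatal samples of that set were also the 3 females of the group. The neonatal control PFC group had a single female, at 1.2%.

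In the AMY the same site gave no call, in either line, and single samples carried the means. The adult control AMY samples were at 3.0% (replicate 11), 53.0% (replicate 2), 0.2% (replicate 3), 2.5% (replicate 4) and 4.7% (replicate 8). The O1-C AMY samples were at 0.8%, 0.5%, 2.0%, 0.7% and 1.8%. Of the adult samples 4 lay above all neonatal samples and replicate 3 lay below them. The means were 12.7% ± 22.6 (SD, n = 5) in adults and 1.16% ± 0.69 (SD, n = 5) in neonates (exact Mann-Whitney test, p = 0.151, adjusted p = 0.232). Without replicate 3 the adjusted p was 0.0387, and without replicate 2 the adult mean was 2.60% and the adjusted p was 0.394 (exact Mann-Whitney tests).

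In the stress line the adult AMY samples were at 3.9%, 3.6%, 4.1%, 0.3% (replicate 162), 3.2%, 3.2% and 5.2%. The O1-PRS AMY samples were at 0.6%, 22.3% (replicate 50), 0.7%, 0.7%, 2.2% and 1.4%. Here 6 of 7 adults lay above 5 of 6 neonates. The means were 3.36% ± 1.51 (SD, n = 7) in adults and 4.65% ± 8.67 (SD, n = 6) in neonates, so the mean was higher in neonates while the ranks were higher in adults (exact Mann-Whitney test, p = 0.220, adjusted p = 0.311). With the high value set apart, the neonatal mean was 1.12% ± 0.68 (SD, n = 5), the difference was 2.24 points and the adjusted p was 0.0733 (exact Mann-Whitney test). Without replicate 162 of the adults the adjusted p was 0.0994 (exact Mann-Whitney test).

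Over all brain samples, 2.2% was the highest neonatal level at site 5 once the 22.3% of O1-PRS AMY replicate 50 was set apart. Taken from these data, that level puts 47 of 48 neonatal samples at or under it by construction. Of the 23 adult samples, 21 lay above it, the lowest of them at 2.4%. The adult median was 3.6% and the neonatal median 0.7%. The order of the group medians ran from O2-C PFC (0.5%), O1-PRS PFC (0.65%), O1-C PFC and O2-PRS PFC (both 0.7%), O2-C AMY and O1-C AMY (both 0.8%), O1-PRS AMY (1.05%) and O2-PRS AMY (1.1%) to C AMY (3.0%), PRS AMY (3.6%), C PFC (3.8%) and PRS PFC (4.1%). In each of the 11 pairs of neighbours in this order the samples of the groups overlapped. At the step between the ages, from O2-PRS AMY (0.7% to 1.3%) to C AMY, this rests on C AMY replicate 3 alone, at 0.2%. The other C AMY samples were at 2.5% or more. Whether the change with age differed between the regions was tested in controls on differences of means, permuting the region labels within each age. No Son site passed (for site 5 the exact permutation p was 0.942 and the adjusted p 0.991). At site 5 the mean changes were 3.04 points in PFC and 11.52 points in AMY, the AMY change being carried by the sample at 53.0%. That sample dominated the difference wherever the permutation put it, so at site 5 the test cannot decide. Of all tested sites 0.714% passed that test.

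Other Son sites were called in 1 or 2 of the 4 age comparisons each, or in none. In the control line PFC 1 of 8 Son sites was called, site 5, against 34.7% of the tested sites of all genes, and 2 of 8 were called without C PFC replicate 19 or 32. In the stress line PFC 4 of 8 were called, all higher in adults, against 51.4% of all tested sites. In the control line AMY 1 of 8 was called, against 50.0%, and in the stress line AMY 1 of 8, against 56.2%. The median difference over the 8 Son sites was 0.39 points in the control line PFC, where it was 1.30 points over all tested sites, and 0.58 points in the stress line PFC, where it was 1.54 points. In the AMY it was -0.01 and 0.20 points, against 2.21 and 1.84 points over all tested sites.

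**Figure D2:**
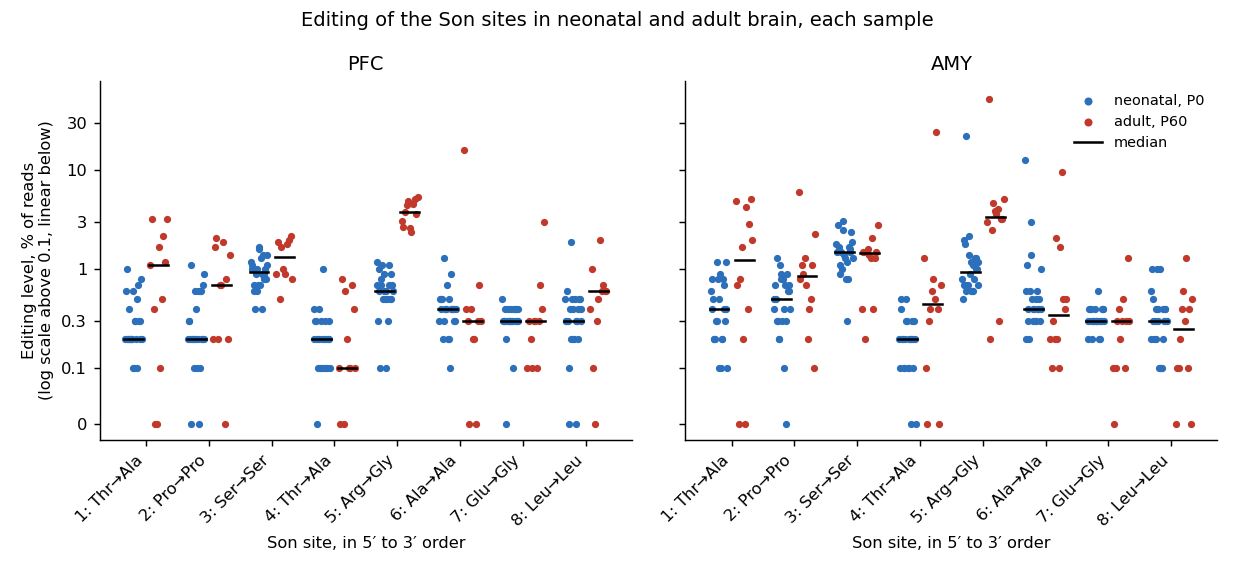
Editing level of each of the 8 Son sites in percent of reads, on an axis that is logarithmic above 0.1 and linear below, in PFC (left) and AMY (right). Points are samples with at least 50 reads, neonatal samples (O1 and O2 groups) in blue and adult samples (C and PRS) in red, and bars are medians. Site 5 (Arg->Gly) stands apart between the ages in the PFC, where adult samples lie from 2.4% to 5.4% and neonatal samples from 0.1% to 1.2%.

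Site 1 (Thr->Ala) in adult PRS PFC was at 1.7%, 0.1%, 0.5%, 2.2%, 1.2% and 3.2%, and in O1-PRS PFC at 0.4% in replicate 36 and 0.2% in the other 5 samples. The adult samples spread widely, and replicate 21 lay below all the neonates. The means were 1.48% ± 1.14 (SD, n = 6) and 0.23% ± 0.08 (SD, n = 6; exact Mann-Whitney test, adjusted p = 0.0762). The call was lost with any of 6 samples left out (O1-PRS PFC replicate 36 and PRS PFC replicates 18, 24, 27, 30 and 33), with an adjusted p up to 0.166. The level in replicate 36 rests on 253 reads with 1 edited read.

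Site 3 (Ser->Ser) was at 1.0%, 0.9%, 1.8%, 2.0%, 2.2% and 0.8% in adult PRS PFC and at 0.7%, 0.4%, 0.9%, 1.0%, 0.6% and 0.7% in O1-PRS PFC. The adult values reached higher but overlapped the neonatal ones. The means were 1.45% ± 0.62 (SD, n = 6) and 0.72% ± 0.21 (SD, n = 6; exact Mann-Whitney test, adjusted p = 0.0614). That call was lost with any of 7 samples left out (O1-PRS PFC replicates 36, 37, 67 and 70 and PRS PFC replicates 24, 27 and 30), with an adjusted p up to 0.121.

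Site 8 (Leu->Leu) went opposite ways in the 2 calls it had. In the stress line PFC the adult samples were at 0.5%, 2.0%, 0.6%, 0.7%, 0.6% and 0.6%, and the neonatal samples at 0.0%, 0.1%, 0.4%, 1.9%, 0.2% and 0.5%. The adults were higher in rank (means 0.83% ± 0.58 and 0.52% ± 0.70, SD, n = 6 each; exact Mann-Whitney test, adjusted p = 0.0919), and a permutation test of means gave an adjusted p of 0.581. The call was lost with any sample left out except O1-PRS PFC replicate 64, with an adjusted p up to 0.177. In the control line AMY the adults were lower, at 0.0%, 0.1%, 0.1%, 0.2% and 0.4%, against 0.2%, 0.6%, 1.0%, 0.5% and 0.3% in the neonates (exact Mann-Whitney test, adjusted p = 0.0826), and that call was lost with any of 7 samples left out (C AMY replicates 2, 3, 4 and 11 and O1-C AMY replicates 46, 56 and 59), with an adjusted p up to 0.162. Both of these calls concern levels of at most 2.0%.

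Site 4 (Thr->Ala) was called in the stress line AMY. The adult samples were at 0.6%, 0.8%, 0.5%, 24.3% (replicate 162), 0.4%, 0.0% and 0.7%, and the neonatal samples at 0.2%, 0.1%, 0.1%, 0.2%, 0.5% and 0.3%. A single sample made most of the difference in means of 3.67 points (exact Mann-Whitney test, adjusted p = 0.0946). With that value set apart the adult mean was 0.50% ± 0.28 (SD, n = 6), the difference was 0.27 points and the adjusted p was 0.151 (exact Mann-Whitney test). The call was lost with any sample left out other than O1-PRS AMY replicate 55 and PRS AMY replicate 6, with an adjusted p up to 0.170. Sites 2 (Pro->Pro), 6 (Ala->Ala) and 7 (Glu->Gly) were called in none of the 4 age comparisons, and over the brain samples site 7 kept to 0.0% to 3.0%.

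Some levels stood far above the rest of their group. A value was set apart where it was at least 5 points above, and at least 5 times, the median of the other samples of its group, and 7 of the 567 Son values in brain met this, 1.23%, in 6 samples. At the sites of other genes 0.743% of the values met it. The shares are not alike, since a site with a high median cannot reach 5 times that median. The other genes include such sites, for example the Tyr->Cys site of Grik2, with group medians from 57.5% to 92.0%. At site 5, C AMY replicate 2 was at 53.0%, from 7296 of 13759 reads (95% Wilson interval 52.2% to 53.9%), where the others of its group had a median of 2.75%. At the same site O1-PRS AMY replicate 50 was at 22.3%, from 1404 of 6303 reads (95% Wilson interval 21.3% to 23.3%), where the others had a median of 0.7%. Both are therefore far outside counting error.

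PRS AMY replicate 162 was high at a pair of neighbouring sites. Site 4 was at 24.3%, from 3175 of 13091 reads (95% Wilson interval 23.5% to 25.0%), and site 6 at 9.6%, from 1439 of 14973 reads (95% Wilson interval 9.15% to 10.1%). At site 5, between them, the same sample was at 0.3%, the lowest of its group. Site 6 (Ala->Ala) was also at 16.2% in C PFC replicate 17, from 270 of 1665 reads (95% Wilson interval 14.5% to 18.1%), and at 12.9% in O1-C AMY replicate 40, from 2223 of 17206 reads (95% Wilson interval 12.4% to 13.4%). Site 2 (Pro->Pro) was at 6.1% in C AMY replicate 11, from 14 of 230 reads (95% Wilson interval 3.66% to 9.96%), where the others had a median of 1.0%. That sample was also the highest of its group at site 1, with 4.9% of 205 reads.

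**Figure D3:**
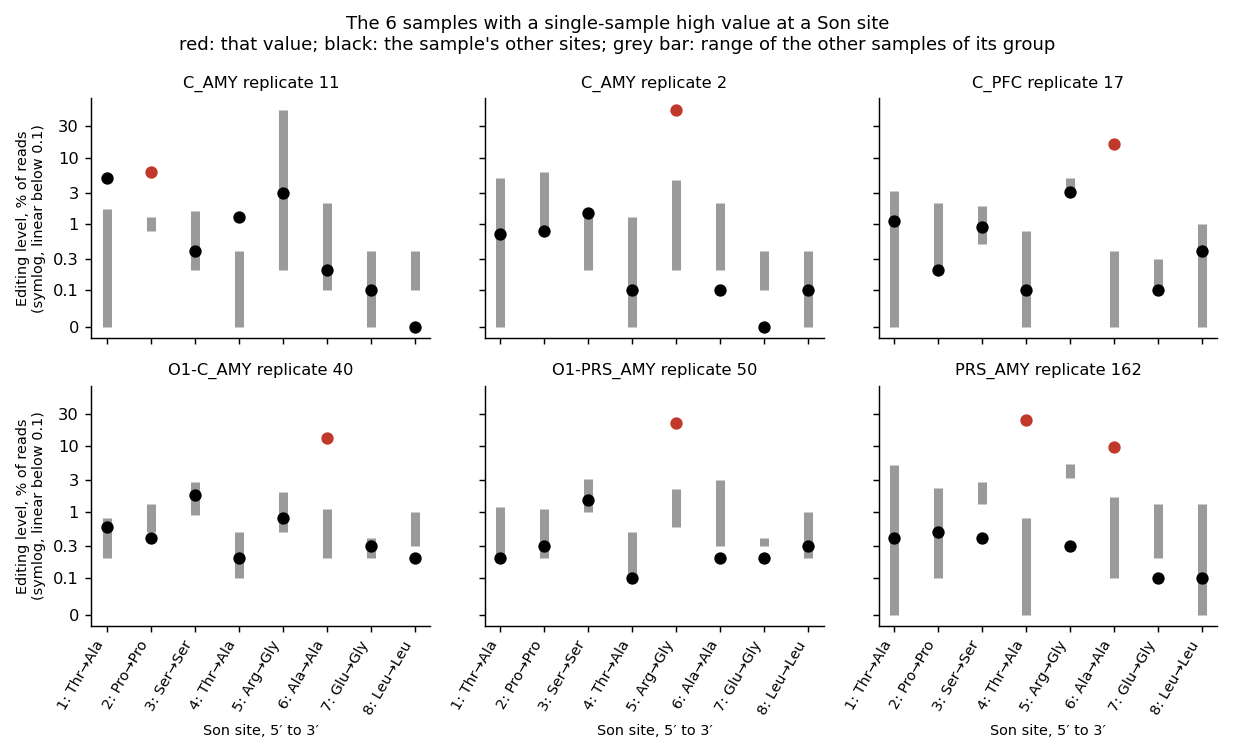
Editing level in percent of reads, on an axis that is logarithmic above 0.1 and linear below, at the 8 Son sites in the 6 brain samples that hold a level set apart from its group. Red points are those levels, black points the other sites of the same sample, and grey bars the range of the other samples of its group. In C AMY replicate 2 site 5 is at 53.0% while the neighbouring sites 4, 6 and 7 are at 0.1%, 0.1% and 0.0%, and in PRS AMY replicate 162 sites 4 and 6 are high while site 5 is at 0.3%.

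In C AMY replicate 2, sites 4, 6 and 7, at nearly the same depth as site 5, were at 0.1%, 0.1% and 0.0%, and in O1-PRS AMY replicate 50 they were at 0.1%, 0.2% and 0.2%. Of the samples high at site 5, C AMY replicate 2 had 3008 reads at site 3 and 10942 at site 8. O1-PRS AMY replicate 50 had 3373 and 3073. PRS AMY replicate 162, high at sites 4 and 6, had 5065 and 10101. Also high at site 6 were C PFC replicate 17, with 952 and 751, and O1-C AMY replicate 40, with 10241 and 7555. C AMY replicate 3, low at site 5, had 1412 and 7127. The 3 samples high at site 6 came from 3 different groups, at both ages and in both regions. Over the listed sites of all genes, C AMY replicate 2 had no other value set apart, O1-PRS AMY replicate 50 had 2 in all with the Son value, C PFC replicate 17 had 4, and PRS AMY replicate 162 had 5, of which 2 were in Son. The mean level over 107 sites of other genes measured in every adult brain sample was 16.8% in C AMY replicate 2 and 16.4% in PRS AMY replicate 162, inside the range of their groups (16.7% to 18.0% and 16.2% to 17.8%). What produced these values was not tested.

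Stress gave no call at any Son site. In each of the 6 comparisons of PRS with C (adults, O1 and O2, in PFC and AMY) 0 of 8 Son sites passed the exact Mann-Whitney test after adjustment, and 0 passed a permutation test of means. Of all tested sites the share called was 0% in adult PFC, adult AMY and O1 PFC, 1.37% in O1 AMY, 1.41% in O2 PFC and 2.05% in O2 AMY. Before adjustment, 2 Son values passed 0.05, 1 of 8 in each O2 comparison. Over all tested sites 23 of 142 passed it in O2 PFC and 9 of 146 in O2 AMY. Site 2 was at 0.17% ± 0.14 (SD, n = 6) in O2-C PFC and 0.49% ± 0.29 (SD, n = 7) in O2-PRS PFC (exact Mann-Whitney test, p = 0.0216, adjusted p = 0.226). Site 3 was at 1.02% ± 0.49 (SD, n = 6) in O2-C AMY and 1.74% ± 0.43 (SD, n = 5) in O2-PRS AMY (exact Mann-Whitney test, p = 0.0368, adjusted p = 0.908). At site 5 the control and PRS means were 3.80% and 3.95% in adult PFC, 0.76% and 0.63% in O1 PFC and 0.48% and 0.71% in O2 PFC (exact Mann-Whitney tests, adjusted p = 1.00, 0.954 and 0.393). In adult AMY, with the level of 53.0% set apart, they were 2.60% ± 1.86 (SD, n = 4) and 3.36% ± 1.51 (SD, n = 7). In O1 AMY they were 1.16% ± 0.69 (SD, n = 5) and 4.65% ± 8.67 (SD, n = 6), or 1.12% ± 0.68 (SD, n = 5) in PRS with the level of 22.3% set apart (exact Mann-Whitney tests, adjusted p = 0.994 and 1.00). In O2 AMY they were 0.83% ± 0.25 (SD, n = 7) and 1.08% ± 0.23 (SD, n = 6; exact Mann-Whitney test, p = 0.0752, adjusted p = 0.440). The sexes were uneven in O2, with 2 females and 5 males in O2-C PFC, 5 and 2 in O2-PRS PFC, 1 and 6 in O2-C AMY, and 5 and 1 in O2-PRS AMY. With labels permuted within sex 0 of 8 Son sites were called in either O2 comparison.

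Between brain regions, site 5 was higher in AMY than in PFC in the second generation. In O2-C the PFC samples were at 0.9%, 0.5%, 0.1%, 0.6%, 0.5% and 0.3% (n = 6), and the AMY samples ran from 0.6% to 1.2% with a median of 0.8% (n = 7). The groups overlapped (difference 0.35 points, exact Mann-Whitney test, adjusted p = 0.0991). In O2-PRS the PFC samples ran from 0.5% to 1.1% with a median of 0.7% (n = 7) and the AMY samples from 0.7% to 1.3% with a median of 1.1% (n = 6; difference 0.37 points, exact Mann-Whitney test, adjusted p = 0.0926). Each call was lost in 11 of 13 leave-outs of 1 sample (all but O2-C AMY replicate 140 and O2-C PFC replicate 130, and all but O2-PRS AMY replicate 146 and O2-PRS PFC replicate 124), with adjusted p up to 0.186 and 0.179, and with labels permuted within library-number sets (exact tests, adjusted p = 0.50 and 0.136). Both were also lost when all listed sites were adjusted together (exact Mann-Whitney tests, adjusted p = 0.151 and 0.188). These were 1 of 8 Son sites in each group, against 16.2% of all tested sites in O2-C and 5.48% in O2-PRS.

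In the other 4 groups 0 of 8 Son sites were called between regions, by ranks or by means, where the share of all tested sites was 0% in C, 13.9% in PRS, 4.79% in O1-C and 4.79% in O1-PRS. Without PRS AMY replicate 6 there was 1 call in PRS. Site 3 (Ser->Ser) passed before adjustment in O1-PRS, with 0.72% ± 0.21 in PFC and 1.77% ± 0.84 in AMY (SD, n = 6 each; exact Mann-Whitney test, p = 0.00433, adjusted p = 0.227). It also passed before adjustment in O2-PRS, with 1.06% ± 0.26 (SD, n = 7) in PFC and 1.74% ± 0.43 (SD, n = 5) in AMY (exact Mann-Whitney test, p = 0.00884, adjusted p = 0.235). In O2-C it was at 1.10% ± 0.52 in PFC and 1.02% ± 0.49 in AMY (SD, n = 6 each). Before adjustment, 1 of 8 Son sites passed in O1-PRS, against 21 of 146 tested sites of all genes. In O2-PRS these were 2 of 8, against 26 of 146. Between the O1-C and O2-C generations 0 of 8 Son sites were called in PFC and 0 of 8 in AMY, by ranks or by means. The share of all tested sites called was 0% and 4.11%. None of the Son sites passed 0.05 before adjustment, while 14 of 142 and 23 of 146 tested sites of all genes did.

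In oocytes Son gave few reads. Sites 4 to 7 reached 50 reads in 4 of 13 oocyte samples (C replicates 163 and 166, PRS replicates 164 and 170), sites 3 and 8 in 2, and sites 1 and 2 in none, so no Son site could be compared between C and PRS oocytes. The share of the 36 sites that could be tested there and were called was 0%, and none passed 0.05 before adjustment. At site 5 the 4 samples were at 0.0%, 0.3%, 0.0% and 0.0%. The level of 0.3% came from 3 of 956 reads. The samples at 0.0% had 885, 211 and 64 reads, which allow levels of up to 0.339%, 1.42% and 4.69%, so the last of them does not set a level below that of adult brain.

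Adult brain of C and PRS females was higher than the pooled oocytes at site 5. The adult PFC mean was 3.88% ± 1.08 (SD, n = 11), and the oocyte mean 0.08% ± 0.15 (SD, n = 4), with no overlap (exact Mann-Whitney test, adjusted p = 0.00391). The groups were separate in this way at 27.9% of all tested sites. Site 5 was the 1 called of 4 Son sites tested, against 54.1% of all tested sites. Without oocyte replicate 166 the count was 4 of 4, and without C PFC replicate 19 or 29 it was 2 of 4. In AMY, with an adult mean of 7.24% ± 14.5 (SD, n = 12), or 3.08% ± 1.60 (SD, n = 11) with the high value set apart, the adjusted p was 0.00733 both ways (exact Mann-Whitney tests). Sites 4 and 6 were also called there, 3 of 4 Son sites in all against 57.4% of all tested sites, with adult medians of 0.45% and 0.35% and oocyte levels of at most 0.1% and 0.4% (exact Mann-Whitney tests, adjusted p = 0.0440 and 0.0563). The permutation test of means gave no call at these 3 sites in AMY (adjusted p = 0.384, 0.384 and 0.419). The calls at sites 4 and 6 were lost when oocyte replicate 163, 164 or 170 was left out, with adjusted p up to 0.109 and 0.162. The median depth at site 5 was 548 reads in these oocyte samples and 5465 in adult brain. No library-number set held both these oocytes and adult PFC, so tissue and set cannot be told apart there, and with labels permuted within sets the AMY calls were lost (exact tests, adjusted p from 0.211 to 0.237).

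Among the other genes of the panel whose products bind RNA, 5 of the 6 chosen genes had sites on the study's list, 8 sites in all. These were the splicing regulators Nova1 and Celf4, the translational repressor Pum2, the reader of methylated adenosine Ythdf3 and the RNA helicase Ddx19b. In each of the 4 age comparisons 1 of the 7 or 8 sites tested was higher in adults and none lower, and it was the Pum2 site in the 3′ untranslated region each time. Of all tested sites, 50 of 144 were higher in adults in the control line PFC, 68 of 142 in the control line AMY, 72 of 144 in the stress line PFC and 79 of 146 in the stress line AMY. In control PFC that site rose from 3.08% ± 0.40 to 11.4% ± 1.28 (SD, n = 5 each; exact Mann-Whitney test, adjusted p = 0.0372). Between regions, 1 of 7 sites was higher in AMY in PRS, 1 of 8 higher in O2-C and 1 of 8 lower in O2-PRS, with none called in C, O1-C and O1-PRS. Over all tested sites these were 15 of 144 higher in PRS, 22 of 142 higher in O2-C and 1 of 146 lower in O2-PRS. None was called in the stress or generation comparisons, and against oocytes 1 of 3 sites was lower in adult PFC and 1 of 3 lower in adult AMY, where 2 of 61 tested sites of all genes were lower in each.

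The pattern of site 5 over the 12 brain groups was closest to that of 3 sites with far higher levels. By Spearman correlation of group medians these were the Tyr->Cys site of Grik2, a kainate receptor subunit (rho = 0.972, group medians from 57.5% to 92.0%), the Ile->Met site of Htr2c, the serotonin 2C receptor (rho = 0.940, 14.9% to 81.3%), and the Gln->Arg site of Grik2 (rho = 0.937, 72.5% to 90.8%), out of 130 sites of other genes compared over 12 groups. These are descriptions, and the points of each pair of sites share their samples. The group medians of site 5 mainly separate the ages, and 34.7% to 56.2% of all tested sites were called in the age comparisons. How far these 3 sites stand apart from the rest of the panel was not tested.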

How the data were processed

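The 72 brain and 13 oocyte samples were analysed by mmPCR-seq. The authors combined the paired reads of 76 bases, aligned them with BWA, allowing 9 mismatches, to rn4 and to sequences across exon junctions, and deposited per site the counts of reads and of edited reads, and the editing level as a fraction rounded to 3 decimals. The labels also name SAMtools. Levels are given here as percent.

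Sites were matched to the study's list by position, since 1 listed site (not of Son) carries another chromosome there. Tests took sites where 3 or more samples per group had 50 or more reads. They were exact Mann-Whitney U tests, two-sided, with mid-ranks, with Benjamini-Hochberg adjustment and FDR 0.1; the test, the adjustment and the FDR follow the study's methods. The adjustment ran separately over nonsynonymous and over other sites of the whole list, a split chosen here that the methods do not state. Brain samples with over 30% of sites under 50 reads were left out. There were 21 comparisons between groups and a test of age by region. Steps were tested on simulated data. Python 3.11.15, numpy 2.4.6, pandas 2.3.3 and scipy 1.17.1 were used. Alternatives were the unrounded level, minimums of 200 reads or none, high values set to missing, joint adjustment, FDR 0.05, means, permutation within library-number sets or within sex, and leaving out each sample.

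All Son sites were named. Sample values were given for each site called in an age comparison, in the groups of that call, and for each single-sample high value. Not every group with a median of 1% or more had its sample values given. The members and lists were chosen with earlier results of these data known.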

Additional observations from a re-analysis of the deposited data

Results flagged for a closer look

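In each Son site and group of 4 to 10 samples with at least 50 reads, the highest or lowest sample was compared with its nearest neighbour by Dixon's rule. In 25 of 96 such groups (26.0%) a sample had a gap above the 95% critical value. That value is set for about 1 in 20 in independent samples of a normal distribution. These levels are bounded at 0 and rounded, and the same samples recur over the sites, so 1 in 20 is no baseline here. Of the flagged samples, 23 were the highest and 2 the lowest of their group. Many of the levels are under 1% and were deposited in steps of 0.1%, so a gap can be few steps wide.

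At site 1 (Thr->Ala) the samples were O1-PRS PFC replicate 36 (0.4%) and O2-C PFC replicate 130 (0.6%). At site 2 (Pro->Pro) they were C AMY replicate 11 (6.1%), O1-C PFC replicate 71 (1.1%) and O1-PRS PFC replicate 70 (0.6%). At site 4 (Thr->Ala) they were PRS AMY replicate 162 (24.3%) and O2-C PFC replicate 150 (1.0%).

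At site 5 (Arg->Gly) C AMY replicate 2 (53.0%) and O1-PRS AMY replicate 50 (22.3%) were high, and PRS AMY replicate 162 (0.3%) was low, with 43 edited of 14207 reads, where the next sample of its group was at 3.2%.

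Site 6 (Ala->Ala) had the most, 7 samples, each the highest of its group. They were C PFC replicate 17 (16.2%), O1-C AMY replicate 40 (12.9%), PRS AMY replicate 162 (9.6%), C AMY replicate 8 (2.1%), O1-PRS PFC replicate 39 (1.3%), O2-PRS AMY replicate 146 (1.0%) and O2-PRS PFC replicate 124 (0.9%). They fall in 7 of the 12 brain groups, at both ages and in both regions.

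At site 7 (Glu->Gly) the high samples were PRS PFC replicate 33 (3.0%), PRS AMY replicate 6 (1.3%) and O2-C AMY replicate 140 (0.6%), and O2-C PFC replicate 157 (0.1%) was low. The 3.0% of PRS PFC replicate 33 rests on 265 of 8835 reads. At site 8 (Leu->Leu) they were PRS PFC replicate 21 (2.0%), O1-PRS PFC replicate 64 (1.9%), O1-PRS AMY replicate 55 (1.0%) and O2-C AMY replicate 138 (1.0%). What produced these values was not tested.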

How the results depend on the processing

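The rise of site 5 (Arg->Gly) with age in PFC kept its direction under all alternatives run, and its call under all except permutation within library-number sets in the control line (adjusted p = 0.441 by the exact test), where the set holds 1 neonatal sample. No called Son site changed direction. The counts of Son sites called changed as follows. The unrounded level gave 2 sites in the control line PFC age comparison, 2 in adult PFC against oocytes, and 0 in the region comparisons of O2-C and O2-PRS. No read minimum gave 8 sites in both comparisons of oocytes with adult brain, where oocyte samples with few reads then enter (28.6% at site 5 from 14 reads in C replicate 169, for example), and 0 in both O2 region comparisons. Adjustment over all sites together gave 0 in both O2 region comparisons. FDR 0.05 gave 0 in both AMY age comparisons, 1 in the stress line PFC and 0 in both O2 region comparisons. Means gave 0 in both AMY age comparisons, in the O2-C region comparison and in AMY against oocytes. Permutation within library-number sets gave 0 in the control line PFC, in both AMY age comparisons, in both O2 region comparisons and in AMY against oocytes, and 2 in the stress line PFC. Permutation within sex gave 0 in the O2-PRS region comparison. Leaving out 1 sample gave 1 to 2 sites in the control line PFC, 0 to 2 in the control line AMY, 1 to 4 in the stress line PFC, 0 to 1 in the stress line AMY, 0 to 1 between regions in PRS, O2-C and O2-PRS, 1 to 4 in adult PFC against oocytes and 1 to 3 in adult AMY against oocytes. The main count in the stress line AMY stayed at 1 with high values set to missing, but site 5 (adjusted p = 0.0733) took the place of site 4 (adjusted p = 0.151) by the exact Mann-Whitney test. All other counts stayed within 1.5 times the main count.

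Permutation within sex was not run where a group held a single sex (age, adult and oocyte comparisons), nor permutation within library-number sets where no set held both groups. No Son site was tested between C and PRS oocytes at 50 reads. No paired analysis was possible because the replicate numbers in the labels are not shared between groups.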
